A study of Mus musculus with 16 samples.

Results

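The response of wild-type adipose RNA to cold was described from RNA sequencing of total RNA (input), by comparing WT cold with WT RT (room temperature) over all genes with 1 RPKM or more in at least 2 of the 4 WT input libraries. RPKM, which divides a gene's reads by its length and by the size of the library, is a level corrected for gene length and library size. This rule kept 12379 of the 17883 genes in the deposited matrix, and it used 4 of the 16 libraries of the series. WT cold mice (2 libraries) were kept singly in cages at 4 °C for 7 days, and WT RT mice (2 libraries) were untreated. All were C57BL/6 mice aged 8 weeks with the genotype METTL3 flox/flox, that is, a floxed Mettl3 gene without Cre. The series title speaks of beiging of white fat, but the labels give the tissue only as adipose, with no depot. Libraries made after pulling down RNA that carries N6-methyladenosine (m6A) from WT cold and WT RT samples are given beside some results. The series also holds ribosome profiling and cold-exposed METTL3 flox/flox mice with Adipoq-Cre, which is active in fat cells, and the 2 input libraries of those mice were used here only to estimate the spread between replicates.

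White fat stores energy as triglyceride, whereas brown and beige fat burn it. In the cold, noradrenaline from sympathetic nerves acts on beta-adrenergic receptors of fat cells, cAMP rises, and triglyceride is broken down to fatty acids. The fatty acids are oxidised in mitochondria and activate UCP1, a protein of the inner mitochondrial membrane that lets protons pass back without making ATP, so that the energy is released as heat. Beige fat cells are UCP1-bearing cells that arise within white depots, most readily in subcutaneous fat during prolonged cold, and subcutaneous fat of mice can enclose a lymph node.

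The 4 libraries held 4453872 to 8673393 reads, a number recovered from the deposited values. Across genes, log2(RPKM + 1) correlated with r = 0.963 between the WT cold replicates, 0.988 between the WT RT replicates and 0.793 to 0.812 between groups. The libraries of the 2 temperatures carry codes of different series (S20L00 and S20L11), so an effect of the code series cannot be told apart from that of temperature. The labels do not say that replicates came from separate animals, so p-values reflect no more than the scatter among these libraries, which may be technical. Adipocyte markers were high in all 4 libraries, with Fabp4, the fatty acid carrier of fat cells, at 7619 and 7517 RPKM in WT cold and 2708 and 2857 RPKM in WT RT. Markers of mammary and skin epithelium (14 genes in the matrix) and of the male reproductive tract (7 genes) all stayed below the filter.

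Fold changes are differences in mean log2(RPKM + 1), WT cold minus WT RT, with the standard error (SE) from limma and 2 libraries per group. They are given as deposited and after each library was centred on its median gene. The median gene was lower in WT cold by 0.68 on the log2 scale as deposited. As deposited, fold changes understate the change of low genes. Centring gives genes near 0 the same upward shift as other genes, so their centred rises can be too large and their centred falls too small. With median-ratio factors, applied before the 1 was added, the median of brown fat secreted factors was 1.06, against 1.34 after centring. For neutrophil and mast cell markers it was -1.47, against -1.01 after centring. A gene is said to have risen or fallen only if its Benjamini-Hochberg adjusted p over all genes tested was under 0.05 on both scales, or on the scale named. Where leaving out 1 library moved a list's centred count of 3 or more by over 1.5 times, this is said beside it, mostly with the count. Smaller counts rest on single genes.

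As deposited, 832 genes (6.72%) were higher and 6526 (52.7%) were lower in WT cold. After centring, 2476 (20.0%) were higher and 2369 (19.1%) lower. Counts of list members given further on stand against these shares. Quantile scaling gave 2813 higher and 2317 lower genes, median-ratio factors 2393 and 2618, and scaling to the total outside mitochondrial mRNAs, Lars2 and Gm20594 1215 and 4803, so the split between rises and falls depended on the scale. Fewer genes passed without WT RT replicate 1 (359 higher and 3074 lower as deposited, 1092 and 1208 after centring) or WT RT replicate 2 (414 and 3571, 1238 and 1252). The same 832 genes rose on both main scales, and 2369 fell on both. A further 4157 genes were lower only as deposited, and 1644 were higher only after centring. Of the falls on both scales, 504 were 2 or more on the centred log2 scale and 63 were 4 or more, against 191 and 6 of the rises. As deposited, 1532 genes (12.4%) were higher and 8785 (71.0%) lower in both cold libraries than in both RT libraries.

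The libraries also differed in how reads were shared out. The 10 most abundant genes of each library took 34.6% and 37.2% of the reads in WT cold, against 12.3% and 14.01% in WT RT. The 10 mitochondrial mRNAs of the matrix took 15.1% and 13.7% in WT cold, against 5.78% and 5.93% in WT RT. Lars2 and Gm20594 together took 7.76% and 9.90% in WT cold, against 2.28% and 3.03% in WT RT, Gm20594 being named after its values were seen. A larger share for a few genes leaves less for the rest. With scaling to the total outside mitochondrial mRNAs, Lars2 and Gm20594, the median gene was at -0.45, against -0.68 as deposited. The part of other abundant genes in the lower median gene was not tested.

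**Figure D1:**
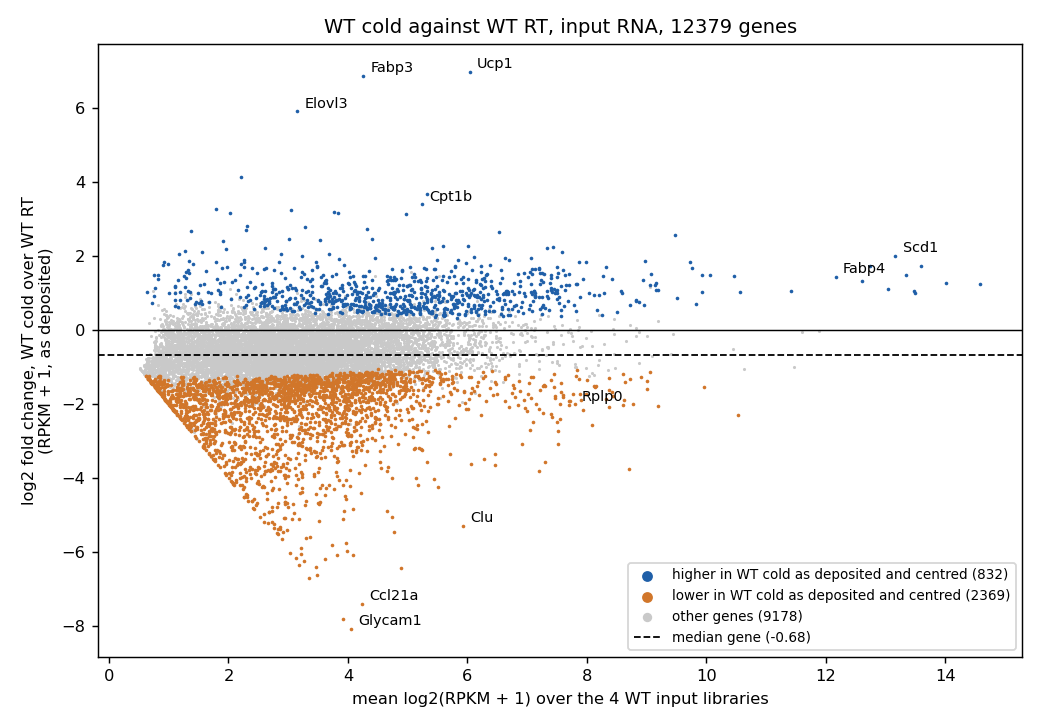
Mean level (x axis, log2(RPKM + 1) over 4 libraries) and log2 fold change as deposited (y axis, WT cold over WT RT) of each of 12379 genes. Blue points are the 832 genes higher and orange points the 2369 genes lower in WT cold on both scales. The dashed line marks the median gene at -0.68, and Ucp1, Fabp3 and Elovl3 stand above the other genes, while Glycam1 and Ccl21a are among the lowest.

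The largest rises of all genes were those of Ucp1, Fabp3 and Elovl3, which make heat or serve it. Ucp1, the uncoupling protein, was at 854 and 639 RPKM in WT cold, against 2.13 and 9.91 RPKM in WT RT. Both cold libraries were far above both RT libraries, which themselves differed, and the log2 fold change was 6.98 as deposited and 7.66 ± 0.91 after centring (limma adjusted p = 0.000933 after centring). Fabp3, a fatty acid carrier of heart, muscle and brown fat, was at 309.7 and 137 RPKM in WT cold, against 1.10 and 0.492 RPKM in WT RT. Its change, 7.55 ± 0.72 after centring, was close to that of Ucp1 and the groups did not overlap. Elovl3, an elongase of very long fatty acids that marks cold-activated brown fat, was at 84.5 and 54.5 RPKM in WT cold, against 0.0686 and 0.215 RPKM in WT RT. Near absent at room temperature, it rose by 6.60 ± 0.32 after centring. Dio2, which converts thyroxine to active thyroid hormone, was at 11.4 and 11.003 RPKM in WT cold, against 0.311 and 0.395 RPKM in WT RT. In a low range it rose by 3.85 ± 0.20, with replicates close together. Of the 21 thermogenic effectors tested, 20 rose and 1 fell on each scale, and their median log2 fold change was 2.44 as deposited and 3.12 after centring, against -0.68 and 0 over all genes tested. The same counts were found without each of the 4 libraries in turn and under each of the 5 scalings.

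Several others of these effectors rose by more than 2 on the centred log2 scale. Cidea, a lipid droplet protein long used as a brown fat marker, was at 262 and 263 RPKM in WT cold, against 49.3 and 91.8 RPKM in WT RT. Kcnk3, a potassium channel enriched in brown fat, was at 71.2 and 72.5 RPKM in WT cold, against 22.2 and 30.6 RPKM in WT RT. Cyp2b10, a cytochrome P450, was at 12.3 and 27.1 RPKM in WT cold, against 0.213 and 0 RPKM in WT RT. These genes had no overlap between groups, with centred changes of 2.63 ± 0.28, 2.11 ± 0.21 and 4.82 ± 0.54. The effector that fell was Ucp2, a relative of Ucp1 common in immune cells and chosen for mention after its values were seen. It was at 18.6 and 29.5 RPKM in WT cold, against 124 and 127 RPKM in WT RT, a change of -1.69 ± 0.29 after centring. Ucp1 exceeded Ucp2 in both WT cold libraries, and Ucp2 exceeded Ucp1 in both WT RT libraries. Ucp3, the uncoupling protein of muscle, also chosen after its values were seen, rose by 1.63 ± 0.20.

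**Figure D2:**
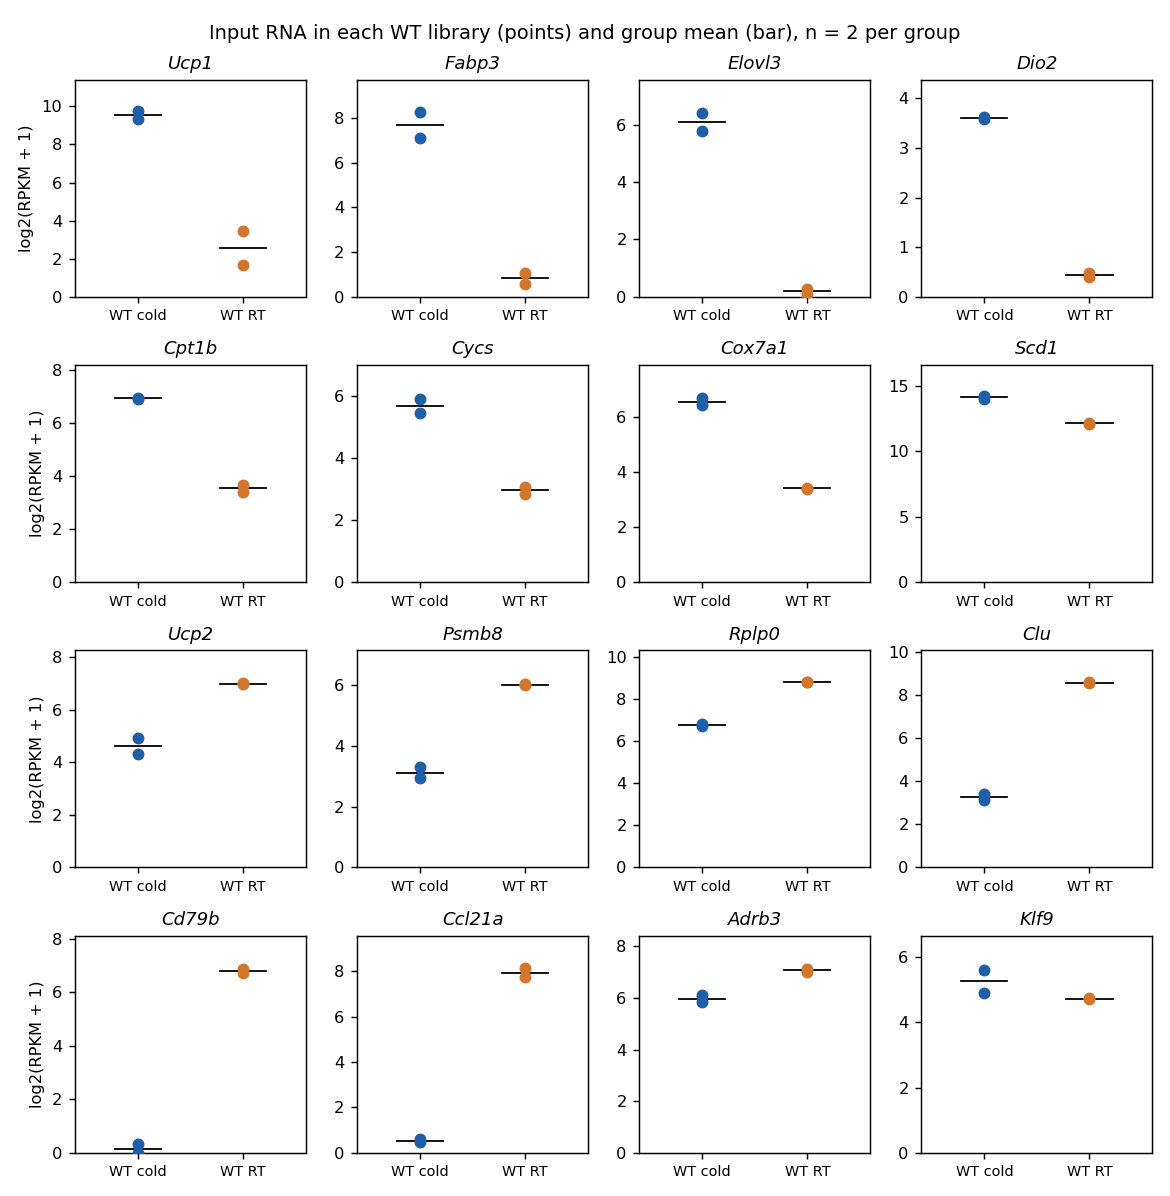
Level of 16 genes in each WT input library, as log2(RPKM + 1) on the y axis. Points are libraries, blue for WT cold and orange for WT RT, and the bar is the group mean of 2. Ucp1, Fabp3, Elovl3 and Dio2 are near the bottom of the scale in WT RT and high in WT cold, Cd79b and Ccl21a show the reverse, and Adrb3 and Klf9 differ less. Each panel has its own scale, which starts at 0.

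Promoters of a few of these genes are shown because the genes moved together from very different starting levels. Each is the RefSeq window of GRCm38.p6 from 250 bases before to 50 after the gene's start, on the gene's strand. Capitals mark a match to a motif searched on both strands: AGGTCA, the half-site of nuclear receptors; TATAAA, the core of the TATA box; TGACGTCA, the full cAMP response element; CCGGAAG, a site of ETS factors; and GCATGCGC, the core of the NRF1 site. The windows are those of Ucp1 (chr8:83290098-83290397, plus strand), Dio2 (chr12:90738989-90739288, minus strand), Slc25a20 (chr9:108661886-108662185, plus strand), which encodes the carnitine carrier of mitochondria, and Cycs (chr6:50566520-50566819, minus strand), which encodes cytochrome c and was chosen after its values were seen.
Ucp1: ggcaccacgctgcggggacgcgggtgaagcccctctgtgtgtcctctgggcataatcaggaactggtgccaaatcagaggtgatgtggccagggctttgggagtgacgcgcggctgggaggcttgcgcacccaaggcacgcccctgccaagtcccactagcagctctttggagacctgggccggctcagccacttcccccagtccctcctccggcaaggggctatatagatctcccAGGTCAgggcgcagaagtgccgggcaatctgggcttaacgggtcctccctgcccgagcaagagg
Dio2: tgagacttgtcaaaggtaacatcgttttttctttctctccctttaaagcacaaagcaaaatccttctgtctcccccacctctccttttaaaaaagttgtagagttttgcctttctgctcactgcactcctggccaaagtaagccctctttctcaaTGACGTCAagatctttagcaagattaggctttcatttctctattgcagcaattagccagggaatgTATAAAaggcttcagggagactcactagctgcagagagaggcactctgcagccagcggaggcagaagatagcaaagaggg
Slc25a20: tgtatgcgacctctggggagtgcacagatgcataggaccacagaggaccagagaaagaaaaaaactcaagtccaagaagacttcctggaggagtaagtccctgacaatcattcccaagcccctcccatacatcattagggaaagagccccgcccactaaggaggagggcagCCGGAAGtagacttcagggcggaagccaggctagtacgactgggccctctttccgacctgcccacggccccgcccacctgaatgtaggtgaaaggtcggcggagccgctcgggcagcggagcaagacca
Cycs: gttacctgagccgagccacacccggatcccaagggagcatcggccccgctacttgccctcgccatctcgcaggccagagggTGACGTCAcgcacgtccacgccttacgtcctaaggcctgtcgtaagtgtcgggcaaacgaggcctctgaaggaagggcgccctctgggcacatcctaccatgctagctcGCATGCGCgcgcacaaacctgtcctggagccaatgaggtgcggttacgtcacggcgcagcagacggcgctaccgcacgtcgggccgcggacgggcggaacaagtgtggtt

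Counted to the first base of each match, the half-site of Ucp1 lay 14 bases before the start. Dio2 held a TATA core 30 bases and a cAMP response element 95 bases before the start, Slc25a20 an ETS site 79 bases before, and Cycs an NRF1 core 60 and a cAMP response element 169 bases before. The windows of Fabp3, Cyp2b10 and Cox7a1 held none of these letters. Of the 9825 genes tested that had an entry, 11.96% held AGGTCA, which was found in 20.9% of the 641 genes with an entry that rose on both scales and in 12.3% of the 1897 that fell. GCATGCGC was in 7.02% of the genes that rose, 3.90% of those that fell and 5.46% of those tested. The other shares lay closer together, with TGACGTCA in 3.12% of the genes that rose, 2.21% of those that fell and 3.16% of those tested, TATAAA in 8.11%, 9.28% and 7.43%, and CCGGAAG in 16.4%, 13.3% and 18.1%. Over the 27025 genes of the RefSeq table, expressed here or not, the shares were 16.04% for AGGTCA, 2.80% for GCATGCGC, 1.88% for TGACGTCA, 14.2% for TATAAA and 9.12% for CCGGAAG. Motif matches are letters in a window and no test of binding was made.

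Regulators of the brown fat programme had smaller and less uniform changes. Ppargc1a, a coactivator that drives mitochondrial genes, was at 6.46 and 10.7 RPKM in WT cold, against 1.86 and 2.03 RPKM in WT RT, a rise of 2.34 ± 0.28 after centring. Its relative Ppargc1b rose by 2.13 ± 0.36, and Ppara, a receptor for fatty acids that works with them, was at 10.9 and 28.8 RPKM in WT cold, against 3.97 and 3.36 RPKM in WT RT, with a rise of 2.69 ± 0.48. Esrrg, an estrogen-related receptor, rose by 1.31 ± 0.19 from a low level, while Esrra had 0.07 as deposited and 0.75 ± 0.15 after centring and passed only after centring. Prdm16 and Ebf2, which set the identity of brown and beige cells, passed on neither scale. Prdm16 was at 3.54 and 1.83 RPKM in WT cold, against 3.69 and 4.63 RPKM in WT RT. Ebf2 was at 9.81 and 8.24 RPKM in WT cold, against 10.5 and 10.2 RPKM in WT RT. Of 19 tested regulators, 4 rose and 4 fell as deposited, and 8 rose and 1 fell after centring, with a median of -0.22 as deposited and 0.46 after centring. Without either WT RT library 5 rose after centring, and the calls of Esrra (0.72 and 0.77) and Klf9 (1.14 and 1.25) were lost.

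Klf9, the zinc finger factor named in the series title, was at 28.8 and 47.99 RPKM in WT cold, against 25.1 and 26.1 RPKM in WT RT. The groups did not overlap, the change was 0.52 as deposited and 1.20 ± 0.27 after centring, and it passed after centring alone (limma adjusted p = 0.0116, against 0.0984 as deposited). Of 12 KLF genes tested, 0 rose and 6 fell as deposited, and 1 rose and 4 fell after centring, with centred rises numbering 3 without WT cold replicate 1. Among all genes, 52.7% fell as deposited, a like share, and 19.1% after centring. Klf2 and Klf13 fell, with centred changes of -1.51 ± 0.26 and -0.93 ± 0.12. Among adipogenic factors, Pparg, the receptor required for fat cell formation, was at 131 and 109 RPKM in WT cold, against 63.3 and 69.5 RPKM in WT RT, a rise of 1.52 ± 0.16. Mlxipl, a carbohydrate-responsive factor that activates lipogenic genes, rose by 1.42 ± 0.22. Cebpa passed on neither scale, with -0.30 as deposited and 0.38 ± 0.19 after centring. Pparg and Mlxipl were the only factors of the 13 tested that rose on both scales, and 5 fell as deposited but none after centring. A further factor, Nr1h3, rose after centring only, and 6 in all did so without WT cold replicate 1.

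Genes that relay the adrenergic signal moved in both directions. Among all genes, 6.72% rose and 52.7% fell as deposited, and 20.0% rose and 19.1% fell after centring. Adrb3, the main beta-adrenergic receptor of mouse fat cells, was at 55.7 and 68.9 RPKM in WT cold, against 128 and 139.8 RPKM in WT RT. It was lower as deposited (-1.10, limma adjusted p = 0.00117) and not past the threshold after centring (-0.42 ± 0.17, adjusted p = 0.0955). Downstream, Adcy3, an adenylyl cyclase, was at 22.3 and 21.4 RPKM in WT cold, against 8.73 and 8.96 RPKM in WT RT, and rose by 1.89 ± 0.16 after centring. Prkar2b, the regulatory subunit of protein kinase A typical of fat, was at 179 and 173 RPKM in WT cold, against 73.1 and 80.8 RPKM in WT RT. The catalytic subunit Prkaca was at 151 and 125 RPKM in WT cold, against 78.5 and 79.4 RPKM in WT RT. Both rose, and so did Pde3b, the phosphodiesterase through which insulin lowers cAMP, by 1.69 ± 0.30. The soluble cyclase Adcy10, at 6.88 and 7.63 RPKM in WT cold, against 0.694 and 0.959 RPKM in WT RT, rose from a level below 1. Over the 26 tested genes, 6 rose and 9 fell as deposited, and 14 rose and 3 fell after centring, with centred rises numbering 8 without WT RT replicate 1 and 9 without WT RT replicate 2, and centred falls numbering 5 without WT cold replicate 2 and 0 without WT RT replicate 2. In the insulin pathway (20 tested), Insr, the insulin receptor, rose by 1.09 ± 0.17 and Mtor by 1.34 ± 0.17, and in all 3 rose and 6 fell as deposited, against 7 and 2 after centring, with centred rises numbering 3 without WT RT replicate 1, and centred falls numbering 4 without WT cold replicate 2.

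Lipolysis and droplet genes rose broadly. Pnpla2, the first lipase of triglyceride breakdown, was at 1133 and 1169.8 RPKM in WT cold, against 683 and 740.4 RPKM in WT RT. Its centred rise of 1.37 ± 0.22 came to 0.34, no longer a call, under quantile scaling. Mgll, which splits the last fatty acid from glycerol, was at 224 and 166 RPKM in WT cold, against 94.3 and 109 RPKM in WT RT. Abhd5, the activator of the first lipase, rose by 1.63 ± 0.13 after centring. Lipe, hormone-sensitive lipase, had 0.41 as deposited and 1.09 ± 0.27 after centring and passed after centring only, a call lost without either WT RT library (0.98 and 1.18). G0s2, an inhibitor of the first lipase, was at 202 and 78.9 RPKM in WT cold, against 196 and 165 RPKM in WT RT, and passed on neither scale. Of 13 tested lipolysis genes, 7 rose and 1 fell as deposited, and 10 rose and 0 fell after centring. On the droplet, Plin5, which tethers droplets to mitochondria, was at 22.6 and 17.3 RPKM in WT cold, against 3.44 and 6.60 RPKM in WT RT. Clstn3, whose locus encodes a droplet protein of brown fat, was at 12.1 and 12.4 RPKM in WT cold, against 1.77 and 1.92 RPKM in WT RT. Plin1, the perilipin of white fat cells, was at 372 and 325 RPKM in WT cold, against 336 and 347 RPKM in WT RT. While Plin5 and Clstn3 rose by 2.52 ± 0.28 and 2.90 ± 0.18, Plin1 passed only after centring, at 0.70 ± 0.13, and not without WT RT replicate 1 (0.65). Of the 12 droplet genes tested 9 rose as deposited and 11 after centring, and none fell, with a median of 1.39 as deposited and 2.06 after centring.

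Genes that bring fatty acids to the cell rose as well. Lpl, the lipase that frees fatty acids from lipoproteins, was at 1242 and 1555 RPKM in WT cold, against 672 and 680.0 RPKM in WT RT. Gpihbp1, which holds it at the capillary wall, rose by 1.27 ± 0.22 after centring. Cd36, a fatty acid transporter, was at 793 and 834 RPKM in WT cold, against 356 and 345 RPKM in WT RT. Vldlr, a lipoprotein receptor, rose by 1.65 ± 0.14. Slc27a2, a transporter with acyl-CoA synthetase activity, was at 14.7 and 6.39 RPKM in WT cold, against 0.221 and 0 RPKM in WT RT, one of the few genes that were near 0 in WT RT. Fatty acids are then bound to coenzyme A, and Acsl1, the main synthetase of fat, was at 800.0 and 1136 RPKM in WT cold, against 239 and 286 RPKM in WT RT. The thioesterase Acot11, a brown fat enzyme induced by cold, was at 37.03 and 43.8 RPKM in WT cold, against 2.85 and 4.27 RPKM in WT RT. Of the 16 uptake genes tested, 9 rose and 2 fell as deposited, and 11 rose and 1 fell after centring, and of 16 synthetases and thioesterases, 8 rose and 1 fell as deposited, and 10 rose and 0 fell after centring.

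Most genes of fatty acid oxidation in mitochondria rose, from entry to the last electron step. Cpt1b, the muscle form of the entry enzyme, was at 120.4 and 123 RPKM in WT cold, against 9.67 and 11.7 RPKM in WT RT, and its rise of 4.08 ± 0.26 was the largest in the pathway. Cpt1a, the liver form, chosen for mention after its values were seen, was at 10.9 and 8.997 RPKM in WT cold, against 16.3 and 15.8 RPKM in WT RT. It was lower as deposited (-0.64) and at 0.03 ± 0.16 after centring. The carnitine carrier Slc25a20 was at 117 and 93.2 RPKM in WT cold, against 18.03 and 24.4 RPKM in WT RT. Further down, Acadvl, Acadm, Hadha, Hadhb and Etfdh, which dehydrogenate and shorten acyl chains and pass on their electrons, rose by 2.24, 2.19, 2.33, 2.38 and 2.66 after centring, each with an SE of 0.13 to 0.15. Of 25 tested genes of the pathway, 20 rose and 1 fell as deposited, and 23 rose and 0 fell after centring, with a median of 1.27 as deposited and 1.95 after centring. In peroxisomes, where long and dicarboxylic acids are shortened, Ehhadh was at 65.98 and 123 RPKM in WT cold, against 16.5 and 21.1 RPKM in WT RT. It rose, and of 19 tested genes 13 rose and 3 fell as deposited, and 15 rose and 1 fell after centring.

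Genes of fatty acid synthesis rose beside those of oxidation. Scd1, the desaturase that makes oleate, was at 16998 and 19805 RPKM in WT cold, against 4429 and 4739 RPKM in WT RT. It rose by 2.68 ± 0.29 after centring, but came to 0.46, no longer a call (limma adjusted p = 0.14), under quantile scaling. It was the most abundant mRNA in WT cold other than mitochondrial mRNAs and Lars2. Fasn, fatty acid synthase, was at 3782 and 4115 RPKM in WT cold, against 1569 and 2309.6 RPKM in WT RT, with the RT libraries apart from each other and below both cold libraries. Me1, malic enzyme, which supplies NADPH, was at 1577 and 1875 RPKM in WT cold, against 233 and 361 RPKM in WT RT. Elovl6, which elongates palmitate, was at 330.1 and 432 RPKM in WT cold, against 66.02 and 92.4 RPKM in WT RT. Me1 and Elovl6 rose by 3.24 ± 0.33 and 2.94 ± 0.24, and Fasn by 1.73 ± 0.28. Acly, Acaca and Acacb, which make acetyl-CoA and malonyl-CoA, rose by 2.35, 2.05 and 2.16, and G6pdx of the pentose phosphate pathway rose by 2.31 ± 0.19. In this list of 21 tested genes 15 rose and 1 fell as deposited, and 16 rose and 0 fell after centring. Acetyl-CoA synthetase Acss2, which reuses acetate, was at 245 and 276 RPKM in WT cold, against 74.4 and 105 RPKM in WT RT.

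Re-use of glycerol and building of triglyceride followed. Gk, glycerol kinase, which is scarce in resting white fat, was at 34.9 and 16.9 RPKM in WT cold, against 1.51 and 1.89 RPKM in WT RT, a rise of 3.91 ± 0.30 after centring. Gpd1 and Gpd2, the cytosolic and mitochondrial enzymes of the glycerol phosphate shuttle, both rose, by 2.51 ± 0.20 and 2.58 ± 0.15. Gpd1 was at 1738 and 1453 RPKM in WT cold, against 382 and 519 RPKM in WT RT. Dgat1 and Dgat2, which add the last fatty acid, rose by 1.38 ± 0.18 and 1.35 ± 0.17. Agpat2 had 1.18 as deposited and 1.86 ± 0.43 after centring and passed after centring alone, a call lost without WT cold replicate 1 (1.43) or WT RT replicate 1 (1.70). Of 18 tested genes 10 rose as deposited and 14 after centring, and none fell. Gys2, the liver form of glycogen synthase, was among the 12 largest rises of all genes, at 40.8 and 42.8 RPKM in WT cold, against 2.77 and 4.93 RPKM in WT RT. Cholesterol synthesis moved less evenly, and of 22 tested genes 8 rose and 1 fell as deposited, and 14 rose and 1 fell after centring, with centred rises numbering 9 without WT RT replicate 1, and centred falls numbering 3 without WT cold replicate 1. Fdps, which makes farnesyl diphosphate, rose by 2.40 ± 0.31 and Nsdhl by 2.09 ± 0.24.

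Most genes of glucose use rose, from the transporter to the mitochondrion. Slc2a4, the insulin-responsive glucose transporter GLUT4, was at 155 and 134 RPKM in WT cold, against 64.8 and 72.9997 RPKM in WT RT. Slc2a1, the ubiquitous GLUT1, was at 0.813 and 3.10 RPKM in WT cold, against 11.5 and 10.8 RPKM in WT RT. They moved in opposite directions, by 1.74 ± 0.19 and -1.47 ± 0.40 after centring, and the fall of Slc2a1 lost its call without either WT RT library (-1.47 and -1.50). Hk2, the hexokinase of muscle and fat, was at 131 and 63.3 RPKM in WT cold, against 28.1 and 31.2 RPKM in WT RT. Aldoa, Tpi1, Pgk1 and Pgam1 of the central reactions rose by 2.17, 1.93, 2.10 and 2.22, and Ldhb, the lactate dehydrogenase subunit of oxidative tissue, by 2.56 ± 0.21. Of 20 tested glycolysis genes, 13 rose and 3 fell as deposited, and 16 rose and 2 fell after centring. At the gate to the mitochondrion, Mpc1, a subunit of the pyruvate carrier, was at 409 and 386 RPKM in WT cold, against 81.1 and 104 RPKM in WT RT. Pdha1, of pyruvate dehydrogenase, was at 271 and 275 RPKM in WT cold, against 90.01 and 118 RPKM in WT RT. Pdk4, a kinase that shuts pyruvate dehydrogenase off, was at 128 and 419 RPKM in WT cold, against 24.3 and 52.3 RPKM in WT RT, with both pairs of replicates wide apart. It rose by 3.34 ± 0.60, and among the 15 genes tested here 11 rose and 1 fell as deposited, and 13 rose and 1 fell after centring. Of 20 tested genes of the citric acid cycle, 16 rose as deposited and 19 after centring, and none fell. Idh3a, a subunit of the isocitrate dehydrogenase of the cycle, was at 205 and 182 RPKM in WT cold, against 46.7 and 52.4 RPKM in WT RT. Breakdown of branched-chain amino acids, a fuel of brown fat, was raised in part: of 20 tested genes 9 rose as deposited and 16 after centring. Its mitochondrial carrier Slc25a44 rose by 1.26 ± 0.19 and Bckdhb of the branched-chain dehydrogenase by 1.82 ± 0.14, while Bcat2, the transaminase, had -0.51 as deposited and 0.17 ± 0.24 after centring and passed on neither scale.

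The respiratory chain rose nearly as a whole. Of 37 nuclear complex I subunits, 31 rose as deposited and 34 after centring, none fell, and the median was 0.88 as deposited and 1.56 after centring. Ndufs1, the largest subunit, was at 106 and 118 RPKM in WT cold, against 38.5 and 49.2 RPKM in WT RT. Among the 44 tested genes of complexes II to V and cytochrome c, 34 rose and 5 fell as deposited, and 38 rose and 1 fell after centring. Atp5b, the catalytic subunit of ATP synthase, was at 839 and 849 RPKM in WT cold, against 376 and 423 RPKM in WT RT. Cox7a1, the muscle and brown fat form of a cytochrome oxidase subunit, was at 84.9 and 100.5 RPKM in WT cold, against 9.31 and 9.75 RPKM in WT RT. It rose by 3.83 ± 0.30, and its broadly expressed relative Cox7a2 by 1.74 ± 0.14. Cox8b, another such form, was at 387 and 312 RPKM in WT cold, against 68.1 and 78.8 RPKM in WT RT. Its broadly expressed relative Cox8a had 0.14 as deposited and 0.82 ± 0.13 after centring and passed only after centring. Atp5g1, which encodes the proton-carrying c subunit of ATP synthase, was at 3.96 and 3.14 RPKM in WT cold, against 8.54 and 7.65 RPKM in WT RT. It was lower as deposited and passed no threshold after centring (-0.32 ± 0.18).

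All 10 mRNAs encoded by mitochondrial DNA rose on both scales, with a median of 1.25 as deposited and 1.93 after centring. mt-Co1, a cytochrome oxidase subunit, was the most abundant mRNA of both groups, at 38504 and 37289 RPKM in WT cold, against 15666 and 16292 RPKM in WT RT. mt-Nd1 of complex I was at 19122 and 15763 RPKM in WT cold, against 5986 and 6397 RPKM in WT RT. Quantile scaling, which forces the libraries to 1 distribution, turned mt-Atp6, mt-Co2, mt-Atp8 and mt-Nd4l to -0.23, -0.35, -0.43 and -0.32 and set mt-Co1 at 0.00 and mt-Nd1 at 0.17, so the direction of these most abundant mRNAs rests on the scale. Under it 2 of the 10 rose, none fell and the median was 0.06. The genes that copy and transcribe mitochondrial DNA did not move together: of 16 tested, 2 rose and 4 fell as deposited, and 5 rose and 0 fell after centring, with centred rises numbering 3 without either WT RT library. Tfam, which packs mitochondrial DNA, was at 4.07 and 3.88 RPKM in WT cold, against 5.95 and 5.74 RPKM in WT RT, and passed on neither scale. The transcription factor Tfb2m was at 22.8 and 25.9 RPKM in WT cold, against 11.02 and 11.7 RPKM in WT RT, and rose by 1.71 ± 0.16. Of 76 mitochondrial ribosomal proteins, 14 rose and 4 fell as deposited, and 58 rose and 0 fell after centring, with centred rises numbering 24 without WT RT replicate 1 and 26 without WT RT replicate 2. Mrpl42, of the large subunit, was at 84.6 and 89.3 RPKM in WT cold, against 43.02 and 46.9 RPKM in WT RT. In coenzyme Q, heme and iron-sulfur synthesis (25 tested), 7 rose and 2 fell as deposited, and 20 rose and 0 fell after centring, with centred rises numbering 11 without WT RT replicate 1. Alas1, the first enzyme of heme synthesis, was at 124 and 105 RPKM in WT cold, against 54.5 and 59.8 RPKM in WT RT. Mitochondrial carriers were mixed, and of 32 tested 13 rose and 7 fell as deposited, and 20 rose and 4 fell after centring, with centred falls numbering 1 without WT RT replicate 1 and 0 without WT RT replicate 2. Slc25a34, of unknown substrate, was at 8.77 and 2.86 RPKM in WT cold, against 0.435 and 0.405 RPKM in WT RT.

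**Figure D3:**
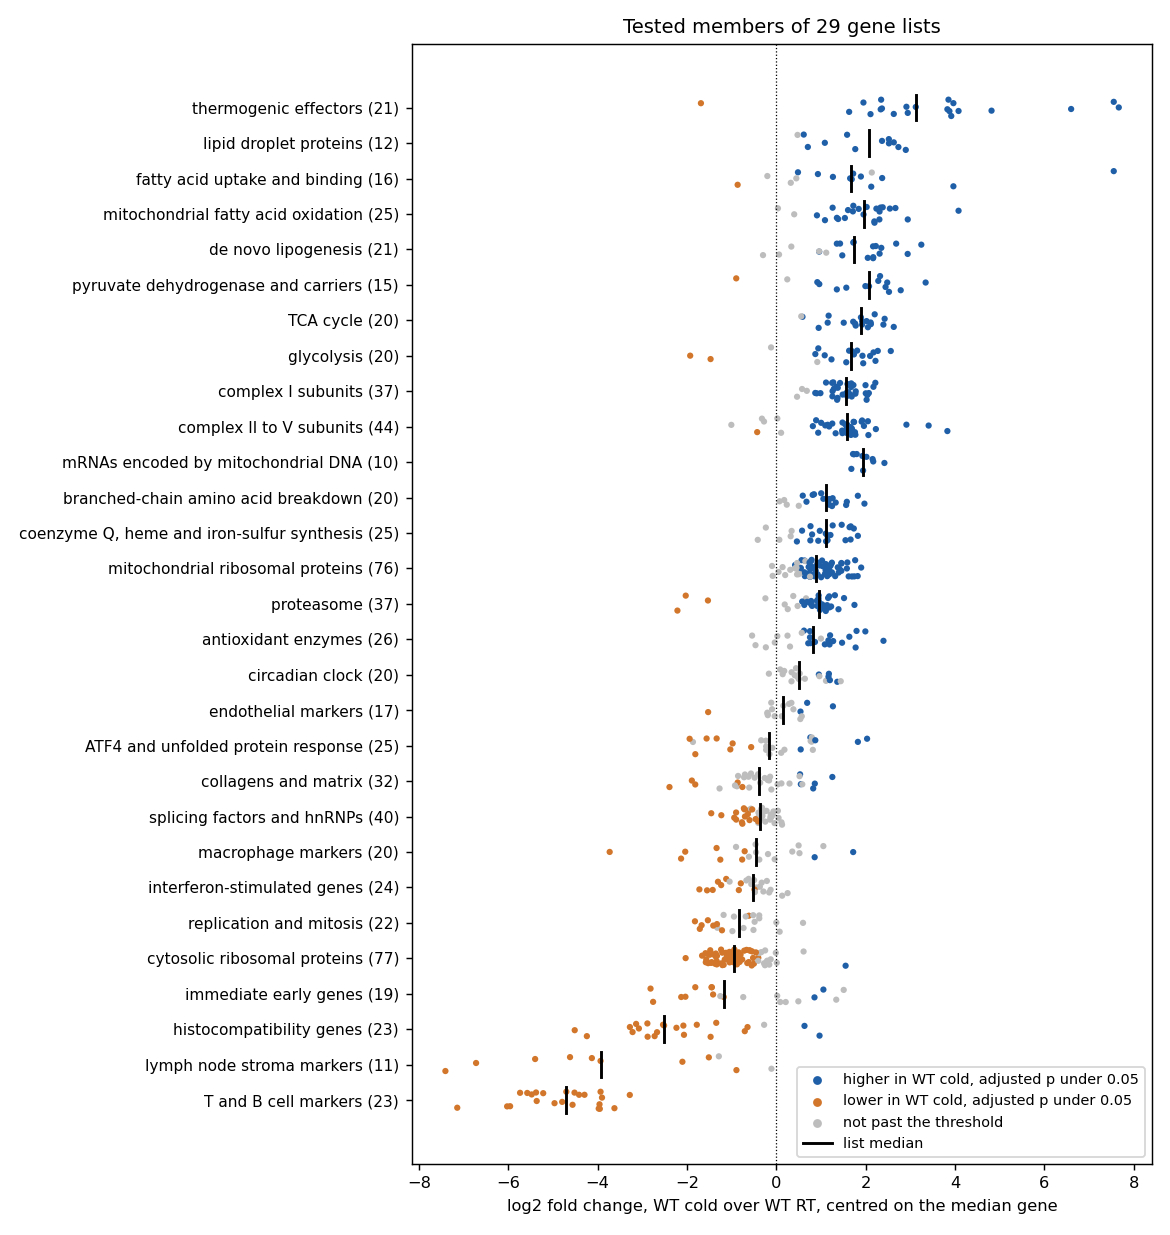
Centred log2 fold change (x axis, WT cold over WT RT) of each tested member of 29 gene lists (rows, number of members in brackets). Blue points were higher and orange points lower in WT cold with an adjusted p under 0.05, grey points passed no threshold, and black bars are medians. Medians of the thermogenic, lipid and respiratory lists lie right of 0, and those of the cytosolic ribosome, histocompatibility and lymphocyte lists lie left of it, with the same sign under 4 other scalings.

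Ratios of related genes within a library do not change when all RPKM values of the library are multiplied by 1 factor. They were taken on the deposited values and bear on the pairs above whatever that factor is. A different mix of cells can still move them. T and B cell markers, described further on, were lower in WT cold, and their part in these ratios was not tested. Quantile scaling is not such a factor and can change them. With 2 libraries against 2 an exact permutation test cannot go below 0.333, so the ratios are given as values with no test, and pairs were chosen with the values known. The ratio of Ucp1 to Ucp2 was 45.8 and 21.7 in WT cold, against 0.0172 and 0.0782 in WT RT. That of Cpt1b to Cpt1a was 11.1 and 13.6 in WT cold, against 0.594 and 0.740 in WT RT. Cpt1a was thus the more abundant form in both WT RT libraries and Cpt1b in both WT cold libraries. Cox7a1 to Cox7a2 stood at 0.547 and 0.660 in WT cold, against 0.139 and 0.122 in WT RT. Cox8b to Cox8a stood at 0.855 and 0.717 in WT cold, against 0.173 and 0.191 in WT RT. In both pairs the form of oxidative tissue gained on the common form but did not exceed it. For the glucose transporters, Slc2a4 to Slc2a1, the ratio was 191 and 43.2 in WT cold, against 5.65 and 6.78 in WT RT. For the hexokinases, Hk2 to Hk1, it was 10.7 and 5.68 in WT cold, against 1.30 and 1.52 in WT RT. For the catalytic subunits of protein kinase A, Prkaca to Prkacb, it was 11.4 and 10.001 in WT cold, against 2.69 and 2.74 in WT RT. None of these pairs overlapped between groups. Hk1 and Prkacb, like Cpt1a and Ucp2, were named after their values were seen.

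**Figure D4:**
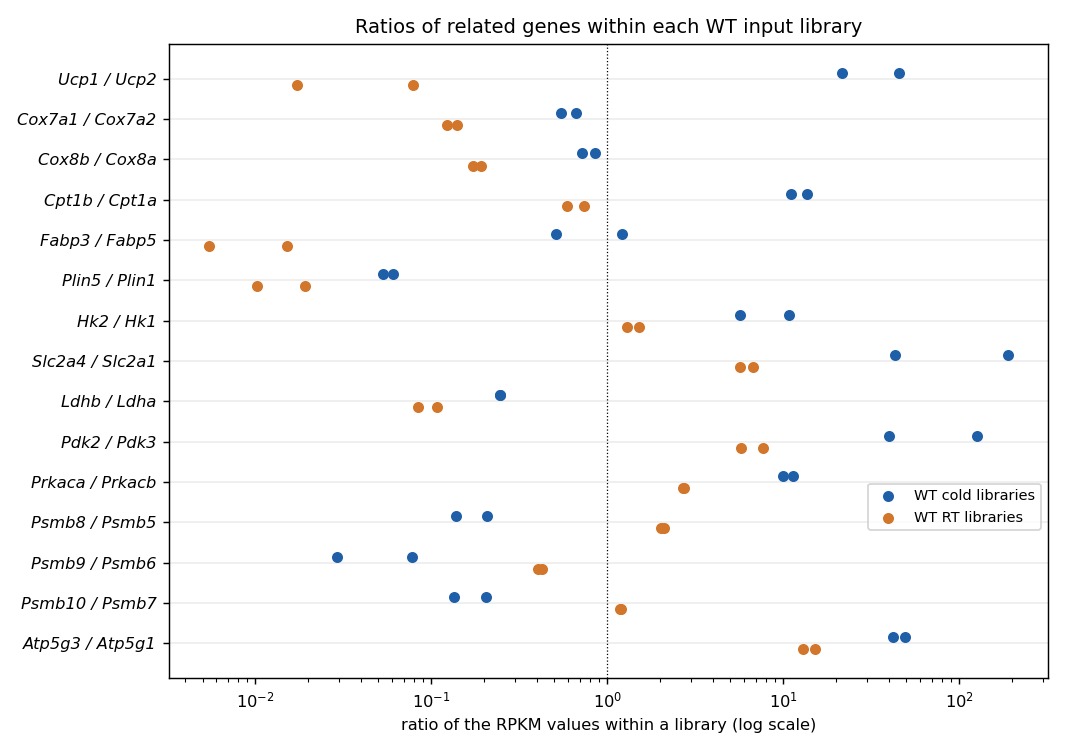
Ratio of RPKM values (x axis, log scale) of 15 pairs of related genes (rows) within each WT input library. Blue points are the WT cold libraries and orange points the WT RT libraries, 2 each. A different mix of cells can also move a ratio, which was not tested. Ucp1 over Ucp2 differs most, at 45.8 and 21.7 in WT cold against 0.0172 and 0.0782 in WT RT, and the 3 immunoproteasome pairs (Psmb8, Psmb9 and Psmb10) lie lower in WT cold.

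Other routes of heat production changed less. In creatine cycling, Ckb, creatine kinase B, was at 18.1 and 8.54 RPKM in WT cold, against 19.2 and 14.6 RPKM in WT RT. Alpl, which releases phosphate from phosphocreatine in thermogenic fat, was at 6.58 and 3.38 RPKM in WT cold, against 2.71 and 3.48 RPKM in WT RT. Neither passed on either scale. Gatm and Gamt, the enzymes of creatine synthesis, passed only after centring (0.94 ± 0.24 and 0.72 ± 0.18), and both calls were lost without either WT RT library (Gatm 1.04 and 0.82, Gamt 0.75 and 0.68), and that of Gatm also without WT cold replicate 2 (0.85). Atp2a2, the calcium pump of the endoplasmic reticulum, was at 64.8 and 60.3 RPKM in WT cold, against 48.9 and 50.7 RPKM in WT RT, and rose by 1.00 ± 0.12. Tmem38b, a potassium channel of the same membrane, was at 93.7 and 217 RPKM in WT cold, against 9.06 and 11.6 RPKM in WT RT, a rise of 4.35 ± 0.41 in the input. In the m6A libraries it was at 6.61 and 6.14 RPKM in WT cold, against 9.40 and 15.2 RPKM in WT RT (-0.27 after centring), so the rise was not seen there. Of 9 genes tested in this list, 2 rose and 1 fell as deposited, and 4 rose and 0 fell after centring, with centred rises numbering 2 without either WT RT library.

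Among secreted factors, Nrg4, a signal from brown fat to liver, was at 41.5 and 71.1 RPKM in WT cold, against 17.8 and 21.3 RPKM in WT RT. Fgf21, a metabolic hormone, was at 1.70 and 4.01 RPKM in WT cold, against 0 and 0.142 RPKM in WT RT. Bmp8b, a factor that raises the response of brown fat, was at 1.96 and 1.68 RPKM in WT cold, against 0 and 0 RPKM in WT RT. All 3 rose, by 2.11 ± 0.40, 2.46 ± 0.35 and 2.17 ± 0.17 after centring, but Fgf21 and Bmp8b stayed low. Against a floor of 3 reads over the WT RT group, Bmp8b was at least 27.7-fold higher in WT cold. Rbp4, the retinol carrier, rose by 1.65 ± 0.23 and Nampt by 1.48 ± 0.18. Adipoq, adiponectin, was at 498 and 471 RPKM in WT cold, against 566 and 523 RPKM in WT RT. It had -0.17 as deposited and 0.51 ± 0.14 after centring, passed only after centring, lost the call without each of the 4 libraries (0.47 to 0.54) and turned to -0.06 under quantile scaling. Lep, leptin, was at 76.1 and 5.72 RPKM in WT cold, against 67.8 and 48.2 RPKM in WT RT, passing on neither scale, with the 2 cold libraries far apart. Of 15 tested brown fat factors 8 rose and 2 fell as deposited, and 9 rose and 1 fell after centring, and of 17 tested adipokines 4 rose and 3 fell as deposited, and 7 rose and 0 fell after centring, with centred rises numbering 4 without WT RT replicate 1. Vegfa, which attracts blood vessels, was at 102 and 109.8 RPKM in WT cold, against 90.1 and 92.5 RPKM in WT RT, and passed after centring alone (0.89 ± 0.19), not without WT cold replicate 2 (0.78) or either WT RT library (0.84 and 0.92). For the natriuretic peptide system, an alternative route to lipolysis, Npr3, the clearance receptor, had 0.43 as deposited and 1.11 ± 0.16 after centring, and of 7 genes tested 0 rose and 2 fell as deposited, and 2 rose and 0 fell after centring.

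Genes of cytosolic ribosomes fell as a body. Of 77 cytosolic ribosomal proteins, 0 rose and 75 fell as deposited, and 1 rose and 63 fell after centring, with a median of -1.62 as deposited and -0.94 after centring. Rplp0, of the stalk of the large subunit, was at 107 and 112 RPKM in WT cold, against 445 and 446 RPKM in WT RT. Rpl12, of the same stalk, was at 47.1 and 54.95 RPKM in WT cold, against 349 and 329 RPKM in WT RT. Rps6, the small-subunit protein phosphorylated downstream of growth signals, was at 179.9 and 189.7 RPKM in WT cold, against 637 and 645 RPKM in WT RT. The replicates lay close together in both groups. Both cold libraries were below both RT libraries, which as deposited held for 71.0% of all genes. Ribosomal proteins have many pseudogenes, and how the authors' counting treated reads shared with them is not given in the sources used here. In the m6A libraries 2 rose and 37 fell after centring, with a median of -0.35. Lymphocyte markers, described further on, fell beside these genes, and their part in these falls was not tested. Initiation and elongation factors moved less: of 42 tested, 0 rose and 24 fell as deposited, and 13 rose and 6 fell after centring, with centred rises numbering 8 without WT cold replicate 2, 2 without WT RT replicate 1 and 3 without WT RT replicate 2, and centred falls numbering 2 without either WT RT library. Among all genes, 52.7% fell as deposited, a like share, and 20.0% rose and 19.1% fell after centring. Eef1a1, the most abundant of these factors, was at 1051 and 1136 RPKM in WT cold, against 2283 and 2283 RPKM in WT RT. It was lower as deposited and at -0.38 ± 0.17 after centring.

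RNA-processing genes were lower mainly on the deposited scale. Of 40 splicing factors and hnRNP genes, 39 fell as deposited and 16 after centring, and none rose, with centred falls numbering 4 without either WT RT library. Srsf2, a splicing activator, was at 54.2 and 43.2 RPKM in WT cold, against 88.4 and 83.2 RPKM in WT RT, lower as deposited only. U2af2, which finds the end of introns, was at 29.98 and 24.6 RPKM in WT cold, against 79.4 and 72.8 RPKM in WT RT, and fell by 0.77 ± 0.13 after centring. Of the m6A machinery (22 tested), 0 rose and 18 fell as deposited, and 2 rose and 3 fell after centring, with centred falls numbering 0 without WT cold replicate 1, 1 without WT cold replicate 2 and 0 without either WT RT library, and no centred rise was called without either WT RT library. Mettl3, the catalytic writer and the floxed gene, was at 5.24 and 3.66 RPKM in WT cold, against 10.8 and 9.27 RPKM in WT RT, with -1.03 as deposited and -0.35 ± 0.28 after centring. The partner Mettl14 was at 2.69 and 2.29 RPKM in WT cold, against 8.43 and 7.59 RPKM in WT RT. The eraser Fto was at 23.3 and 22.5 RPKM in WT cold, against 27.7 and 28.96 RPKM in WT RT. Mettl3 was lower as deposited only, Mettl14 on both scales (its centred call was lost without any 1 of the 4 libraries, at -0.66 to -0.74) and Fto on neither.

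The proteasome split into its standard and its immune form. Psmb5, a standard catalytic subunit, was at 43.3 and 47.9 RPKM in WT cold, against 29.7 and 32.2 RPKM in WT RT. Psmb8, which replaces it in the immunoproteasome, was at 8.92 and 6.62 RPKM in WT cold, against 62.7 and 64.6 RPKM in WT RT. Psmb8 fell by 2.22 ± 0.18 after centring. Psmb9 and Psmb10, the other immune subunits, named after their values were seen, both fell. Psmb9 was at 6.40 and 2.32 RPKM in WT cold, against 31.98 and 30.9 RPKM in WT RT. Psmb10 was at 9.23 and 5.31 RPKM in WT cold, against 33.8 and 38.8 RPKM in WT RT. Immune cells carry much of the immunoproteasome, and the part of the lower lymphocyte markers in these falls was not tested. Of 37 tested proteasome genes 9 rose and 4 fell as deposited, and 28 rose and 3 fell after centring, and Psmb8, Psmb9 and Psmb10 were the 3 that fell after centring. The centred rises numbered 11 without WT RT replicate 1 and 15 without WT RT replicate 2, and Psmb5, which passed only after centring, lost its call without WT RT replicate 1 (1.13). Nfe2l1, a factor that sustains proteasome genes in brown fat, was at 112 and 107 RPKM in WT cold, against 78.4 and 82.5 RPKM in WT RT, and rose by 1.12 ± 0.13. The ratio of Psmb8 to Psmb5 was 0.206 and 0.138 in WT cold, against 2.11 and 2.01 in WT RT.

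Stress genes had no single direction. Hspd1 and Hspa9, the main chaperones of mitochondria, both rose. Hspd1 was at 159 and 122 RPKM in WT cold, against 72.1 and 69.97 RPKM in WT RT. Hspa9 was at 239.7 and 238 RPKM in WT cold, against 91.4 and 102 RPKM in WT RT. Of 15 tested heat shock genes 6 rose and 2 fell as deposited, and 11 rose and 0 fell after centring, with centred rises numbering 7 without WT RT replicate 1. Among 26 tested antioxidant genes, 10 rose and 6 fell as deposited, and 17 rose and 0 fell after centring. Sod2, the mitochondrial superoxide dismutase, was at 63.8 and 52.3 RPKM in WT cold, against 23.01 and 22.3 RPKM in WT RT. Cat, the peroxisomal catalase, was at 395 and 427 RPKM in WT cold, against 203 and 221 RPKM in WT RT. In the list of ATF4 targets and the unfolded protein response (25 tested) 2 rose and 16 fell as deposited, and 5 rose and 7 fell after centring, with centred rises numbering 3 without WT RT replicate 1, and centred falls numbering 4 without either WT RT library. Asns, asparagine synthetase, rose by 1.82 ± 0.19, whereas Aldh18a1, of proline synthesis, was at 1.54 and 0.573 RPKM in WT cold, against 11.6 and 10.99 RPKM in WT RT, and fell. Slc7a11, the cystine transporter, was at 0.0250 and 0.0243 RPKM in WT cold, against 2.90 and 3.41 RPKM in WT RT, and fell by 1.34 ± 0.19. Of 27 lysosome genes 3 rose and 10 fell as deposited, and 12 rose and 5 fell after centring, with centred rises numbering 7 without WT cold replicate 2 and 5 without either WT RT library, and centred falls numbering 3 without WT RT replicate 1 and 1 without WT RT replicate 2. Ctsd, cathepsin D, was at 608 and 605 RPKM in WT cold, against 342 and 381 RPKM in WT RT, and rose. Of 19 tested immediate early genes, which answer stimuli within minutes, 0 rose and 10 fell as deposited, and 2 rose and 9 fell after centring, with centred rises numbering 5 without WT cold replicate 1, and centred falls numbering 5 without WT RT replicate 2. Among all genes, 52.7% fell as deposited, a like share, and 19.1% after centring. Egr3 was at 0.322 and 0.570 RPKM in WT cold, against 14.5 and 16.1 RPKM in WT RT. Ier2 was at 4.16 and 1.92 RPKM in WT cold, against 22.6 and 30.3 RPKM in WT RT. Both fell, while Fos, at 0.711 and 9.69 RPKM in WT cold, against 7.41 and 14.6 RPKM in WT RT, passed on neither scale. Of 20 tested clock genes 1 rose and 1 fell as deposited, where 6.72% of all genes rose and 52.7% fell. After centring 5 rose and 0 fell, where 20.0% of all genes rose and 19.1% fell. The centred rises were fewer without WT RT replicate 1. Rora, an activator in the clock, rose by 1.36 ± 0.25 but lost its call without that library (1.27).

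The largest falls of all were those of Glycam1, Cd79a and Ccl21a, genes of lymph node and lymphocytes. All 23 tested T and B cell markers fell on both scales and without each library in turn, with a median of -5.38 as deposited and -4.70 after centring. Cd79a, a subunit of the B cell receptor, was at 0 RPKM in WT cold, against 229.5 and 221 RPKM in WT RT. Its partner Cd79b was at 0.242 and 0 RPKM in WT cold, against 116 and 104 RPKM in WT RT. Against a floor of 3 reads over the WT cold group, the level of Cd79a in WT cold was lower by at least 1438-fold. Cd3e, of the T cell receptor, was at 0.0789 and 0 RPKM in WT cold, against 76.3 and 70.04 RPKM in WT RT. The summed level of the list was 3.31 and 3.40 RPKM in WT cold, against 1447 and 1342 RPKM in WT RT, and Cd79a, Blk and Fcmr, all of B cells, were at 0 in both cold libraries. Blk was named after its values were seen. Of the 11 tested markers of lymph node stroma 0 rose and 10 fell as deposited, and 0 rose and 9 fell after centring. Glycam1, a sulfated mucin of the vessels through which lymphocytes enter nodes, was at 0 RPKM in WT cold, against 252 and 291 RPKM in WT RT, at least 746-fold lower in WT cold by the same floor. Ccl21a, the chemokine of T cell zones, was at 0.398 and 0.516 RPKM in WT cold, against 282 and 213 RPKM in WT RT. Clu, clusterin, was at 7.71 and 9.80 RPKM in WT cold, against 376 and 385 RPKM in WT RT. The summed level of this list was 94.4 and 97.7 RPKM in WT cold, against 1249 and 1255 RPKM in WT RT, and Glycam1 and Fcrla, a B cell protein in the same list, were at 0 in both cold libraries. In bulk tissue, fewer cells of a type and less RNA per cell cannot be told apart, and whether tissue of the 2 groups included lymph node to the same extent is not in the labels.

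Other genes that immune cells express differed from list to list. Class II histocompatibility genes, which present antigen to T cells, were lower in WT cold, and many are similar in sequence, so reads may be shared between them. H2-Aa was at 49.6 and 40.2 RPKM in WT cold, against 520.2 and 561 RPKM in WT RT. Cd74, the invariant chain, was at 109 and 116 RPKM in WT cold, against 1469 and 1613 RPKM in WT RT. H2-Oa, a class II gene of B cells, was at 0 RPKM in WT cold, against 33.6 and 37.7 RPKM in WT RT. Of 23 histocompatibility genes 0 rose and 21 fell as deposited, and 2 rose and 20 fell after centring. B2m, the light chain of class I, was at 3346 and 2794 RPKM in WT cold, against 3135 and 3198 RPKM in WT RT, close between groups and past the threshold only after centring (0.63 ± 0.19), not without each library in turn (0.57 to 0.70). Of 24 interferon-stimulated genes 0 rose and 20 fell as deposited, and 0 rose and 9 fell after centring, with centred falls numbering 4 without WT cold replicate 2 and 3 without either WT RT library. Of 20 tested macrophage markers 1 rose and 13 fell as deposited, and 2 rose and 7 fell after centring, with centred falls numbering 3 without WT cold replicate 1, 4 without WT cold replicate 2 and 3 without either WT RT library. The gene of this list that rose on both scales was Lpl, described above, which fat cells express too. Lyz2, lysozyme, was at 78.8 and 62.1 RPKM in WT cold, against 440.4 and 494 RPKM in WT RT, and fell. Mrc1, the mannose receptor of resident macrophages, was at 16.02 and 13.5 RPKM in WT cold, against 25.7 and 24.1 RPKM in WT RT, lower as deposited only (-0.04 ± 0.23 after centring). Adgre1, the F4/80 antigen, passed on neither scale, at 3.31 and 3.40 RPKM in WT cold, against 7.25 and 9.01 RPKM in WT RT. Timd4, a receptor of resident macrophages, was at 1.59 and 0.517 RPKM in WT cold, against 35.9 and 47.2 RPKM in WT RT, and its centred change of -3.73 ± 0.28 was the largest fall of the list. Among neutrophil and mast cell markers (13 tested) 0 rose and 10 fell as deposited, and 0 rose and 7 fell after centring. The neutrophil gene S100a9 was at 0.222 and 2.16 RPKM in WT cold, against 26.9 and 30.7 RPKM in WT RT. The part of the lymphocyte and stromal markers in these differences was not tested.

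In lists of stromal genes, the share lower as deposited lay on both sides of the 52.7% of all genes. Each list described here, other than that of replication genes, held genes called higher and genes called lower after centring. Of 32 collagen and matrix genes, 0 rose and 23 fell as deposited, and 5 rose and 5 fell after centring, with centred rises numbering 1 without WT RT replicate 1 and 2 without WT RT replicate 2, and centred falls numbering 8 without WT cold replicate 1, 1 without WT cold replicate 2, 2 without WT RT replicate 1 and 0 without WT RT replicate 2. Col1a1, of fibrillar collagen I, was at 99.6 and 38.96 RPKM in WT cold, against 513 and 552 RPKM in WT RT. Col3a1, of collagen III, was at 182 and 66.3 RPKM in WT cold, against 672 and 647 RPKM in WT RT. The cold replicates stood well apart from each other but below WT RT. Col4a1, of basement membranes, was at 195 and 146 RPKM in WT cold, against 228 and 214 RPKM in WT RT, and passed on neither scale. Without WT cold replicate 2, Col1a1 and Col3a1 lost their calls after centring (-1.79 and -1.23), as Col1a1 did without WT RT replicate 2 (-2.33) and Col3a1 without either WT RT library (-1.90). Sparc, a matrix protein of fat, was at 586 and 501 RPKM in WT cold, against 887 and 819 RPKM in WT RT, lower as deposited, at 0.03 ± 0.14 after centring and at -0.84 under quantile scaling. Of 18 tested preadipocyte markers 1 rose and 9 fell as deposited, and 1 rose and 7 fell after centring, with centred falls numbering 4 without WT cold replicate 2 and 4 without either WT RT library. Pdgfra, of fat cell precursors, was at 11.5 and 9.07 RPKM in WT cold, against 18.5 and 16.7 RPKM in WT RT, and passed on neither scale. Thy1, which lymphocytes also carry, was at 8.90 and 3.23 RPKM in WT cold, against 91.4 and 77.9 RPKM in WT RT, and fell by 3.04 ± 0.34. For vessels, Pecam1 was at 53.4 and 48.8 RPKM in WT cold, against 91.4 and 84.9 RPKM in WT RT, lower as deposited only, and of 17 endothelial markers 1 rose and 8 fell as deposited, and 3 rose and 1 fell after centring, with centred rises numbering 1 without WT cold replicate 2 and 1 without either WT RT library. Prox1, of lymphatic vessels, was at 0.160 and 0.142 RPKM in WT cold, against 3.82 and 4.87 RPKM in WT RT, and fell by 1.53 ± 0.20. Among smooth muscle markers (10 tested) 0 rose and 8 fell as deposited, and 2 rose and 1 fell after centring, and of 22 angiogenic genes 1 rose and 8 fell as deposited, and 6 rose and 2 fell after centring, with centred rises numbering 2 without WT RT replicate 1 and 3 without WT RT replicate 2. Replication genes were lower, and of 22 tested 0 rose and 19 fell as deposited, and 0 rose and 8 fell after centring, with centred falls numbering 13 without WT cold replicate 1, 4 without WT RT replicate 1 and 5 without WT RT replicate 2. Mcm6, of the replicative helicase, was at 2.81 and 1.47 RPKM in WT cold, against 15.3 and 14.02 RPKM in WT RT, and fell.

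Marker genes of fat types did not move as sets. Of 11 tested beige markers 3 rose and 5 fell as deposited, and 3 rose and 4 fell after centring. Slc36a2, an amino acid transporter, was at 154 and 119.8 RPKM in WT cold, against 78.1 and 96.9 RPKM in WT RT, and rose. Tmem26 was at 0.365 and 0 RPKM in WT cold, against 3.32 and 3.08 RPKM in WT RT. Tbx1 was at 0.184 and 0.179 RPKM in WT cold, against 3.34 and 4.47 RPKM in WT RT. Both of these fell. The fall of Tmem26 lost its call without either WT RT library (-1.16 and -1.19) and with a pseudocount of 5 (-0.26). Of 9 tested classical brown fat markers 3 rose and 3 fell as deposited, and 4 rose and 1 fell after centring. Lhx8 was at 0.0555 and 0.324 RPKM in WT cold, against 1.74 and 1.30 RPKM in WT RT, lower as deposited only. Of 13 tested white fat markers 1 rose and 1 fell as deposited, and 5 rose and 1 fell after centring, with centred rises numbering 2 without either WT RT library. Nnat, neuronatin, was at 1.01 and 3.43 RPKM in WT cold, against 60.03 and 48.4 RPKM in WT RT, and fell by 3.52 ± 0.65, a call lost with a pseudocount of 0.1 (-3.98). Of 18 tested genes of depot position 1 rose and 4 fell as deposited, and 4 rose and 1 fell after centring. Their centred rises were fewer without WT cold replicate 1 or either WT RT library. Hoxc9 and Hoxc10, genes of position along the body that are active in subcutaneous fat, passed on neither scale. Hoxc10 was at 21.3 and 9.41 RPKM in WT cold, against 11.9 and 13.02 RPKM in WT RT. Of the 19 tested adipocyte markers, 9 rose and 2 fell as deposited, and 14 rose and 0 fell after centring, and their summed level was 19726 and 19408 RPKM in WT cold, against 14681 and 14465 RPKM in WT RT. Markers of other tissues were low or uneven. Acta1, skeletal muscle actin, was at 0.718 and 5.59 RPKM in WT cold, against 105 and 4.30 RPKM in WT RT, high in WT RT replicate 1 alone, and none of the 7 tested muscle markers passed after centring. The summed level of the muscle list was 42.2 and 33.7 RPKM in WT cold, against 397 and 28.5 RPKM in WT RT. Hbb-bs, a globin of red blood cells with near-identical copies among which reads may be split, was at 471 and 639 RPKM in WT cold, against 327 and 135 RPKM in WT RT, a rise whose call was lost without WT cold replicate 2 (1.78) or WT RT replicate 2 (1.44). Alb, albumin, was at 17.6 and 13.1 RPKM in WT cold, against 4.82 and 4.58 RPKM in WT RT, and rose by 2.19 ± 0.24.

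Switching on was rare and switching off common. Only 7 genes were under 1 RPKM in both WT RT libraries and at 5 RPKM or more in both WT cold libraries: Elovl3, Cyp2b10, Slc27a2, Dio2, Adcy10, Rnf225 and Pla2g2e, of which Rnf225 and Pla2g2e were named after their values were seen. Pla2g2e, a secreted phospholipase, was at 7.15 and 8.15 RPKM in WT cold, against 0.605 and 0.633 RPKM in WT RT. Rnf225 was at 8.83 and 14.8 RPKM in WT cold, against 0.956 and 0.876 RPKM in WT RT. The reverse held for 294 genes, led by Glycam1, Cd79a and Ccl21a.

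The WT cold replicates differed more from each other than the WT RT replicates did. Of 9635 genes at 5 RPKM or more in some library, 37 differed by 2 or more on the log2 scale between the cold replicates, against 6 between the RT replicates, and 485 differed by 1 or more, against 26. These genes were named after their values were seen. Irf4, a fasting-induced factor of fat cells, was at 2.25 and 52.97 RPKM in WT cold, against 15.8 and 21.2 RPKM in WT RT. Irs2, an insulin receptor substrate, was at 3.59 and 43.3 RPKM in WT cold, against 20.4 and 29.7 RPKM in WT RT. Pck1, an enzyme on the route from pyruvate to glycerol phosphate, was at 186 and 1129 RPKM in WT cold. In WT RT it was at 418 and 547 RPKM. WT cold replicate 2 was high for these 3 and WT cold replicate 1 was low. The reverse was seen for Angptl8, an insulin-induced inhibitor of lipoprotein lipase, at 146 and 8.05 RPKM in WT cold, against 11.6 and 12.96 RPKM in WT RT, for leptin (Lep, above), and for Ppp1r3b, which directs glycogen synthesis, at 141 and 22.4 RPKM in WT cold, against 16.4 and 20.4 RPKM in WT RT. Per1, Fosb and Txnip were also higher in replicate 2, and Mid1ip1 and Ccnd1 in replicate 1. Of the 37 genes, 33 had the same sign in the m6A libraries of the same replicate numbers. Differences between the 2 cold samples in feeding or time of day are not in the labels and were not tested. The thermogenic effectors did not divide in this way: Ucp1, Cidea, Dio2 and Cpt1b were high in both cold libraries, and Fabp3, at 309.7 and 137 RPKM, differed most of those printed here.

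**Figure D5:**
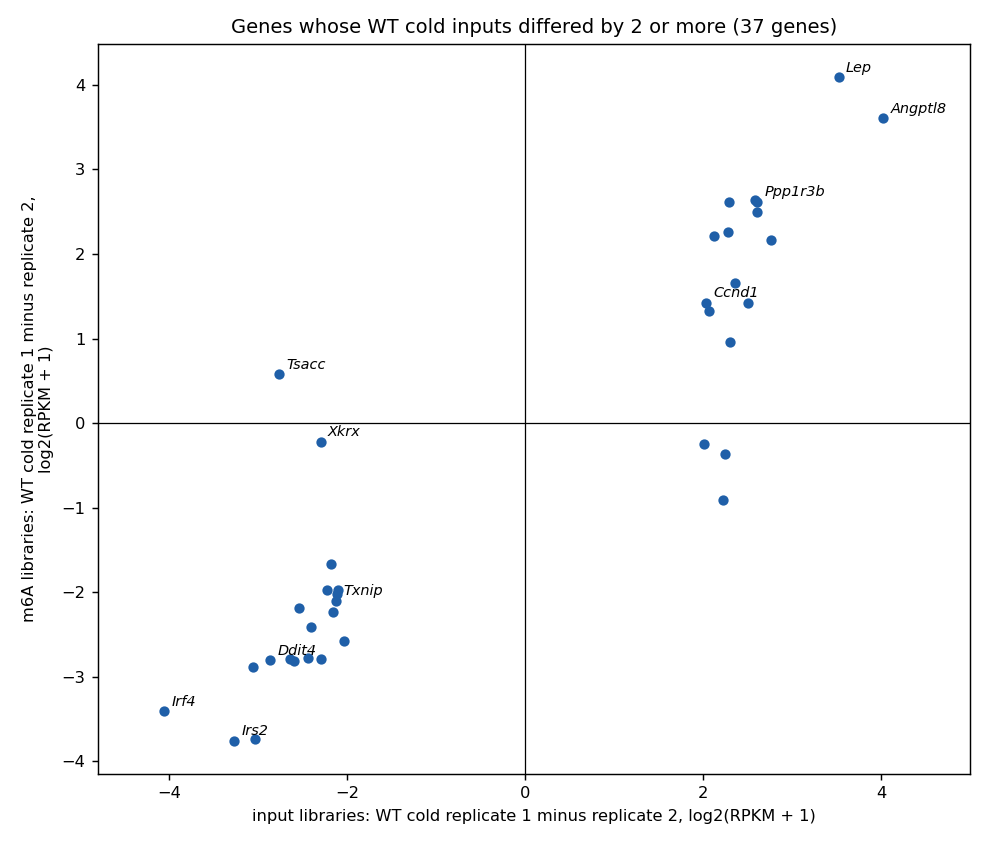
Difference between WT cold replicates 1 and 2, log2(RPKM + 1), in the input (x axis) and in the m6A libraries (y axis), for the 37 genes that differed by 2 or more in the input. Points are genes. For 33 genes both differences have the same sign, with Irf4 and Irs2 higher in replicate 2 and Angptl8 and Lep higher in replicate 1.

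The m6A libraries, which may have been made from the same RNA and are not independent of the input, gave 2905 higher (23.5%) and 3068 lower genes (24.8%) after centring. Of the 832 genes that rose in the input on both scales, 804 were higher there, 27 did not pass and 1 was lower. Of the 2369 that fell, 1982 were lower, 384 did not pass and 3 were higher. Ucp1 had a centred change of 6.79 in the m6A libraries and 7.66 in the input, Elovl3 6.01 and 6.60, and Glycam1 -7.23 and -7.41. Tmem38b was the exception among the 12 largest rises.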

How the data were processed

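Total RNA (input) of adipose tissue from WT cold and WT RT mice, with m6A-captured RNA beside it, was sequenced after Trizol extraction with a TruSeq Small RNA kit, per the labels' protocols. The authors deposited a matrix of RPKM values per gene, and the submitters' processing notes name HISAT2 and mm10; the counting tool, its annotation, its use of strand and its treatment of shared reads are not given in the sources used here, so overlapping genes and near-identical copies may share reads. Gene symbols in the matrix matched 17871 of 17883 identifiers, 25 symbols altered by spreadsheet software were restored, and among 21 repeated rows the lowest identifier kept the symbol.

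The low RPKM values were whole multiples of a gene's value for 1 read in 17883 of 17883 genes (tolerance 0.001 reads; 0 of 300 scrambled genes; 1247 genes were above 0 in at most 1 library, where this holds for any value), which gave the reads per library: 8673393 and 4453872 in WT cold, and 7746445 and 7401865 in WT RT. The scrambled genes were above 0 in all input and m6A libraries and were tried over fewer multiples. For genes above 0 in few libraries a match is easy to reach, so their whole multiples are weak evidence. The floor of 3 reads over a group covers counting error only.

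Genes with 1 RPKM or more in at least 2 of 4 WT input libraries were analysed as log2(RPKM + 1), as deposited and after centring each library on its median gene (shifts of -0.31 and -0.43 in WT cold, 0.33 and 0.28 in WT RT). limma 3.58.1 in R 4.3.3 (empirical Bayes with trend, two-sided, Benjamini-Hochberg over all genes tested, threshold 0.05) was fitted to 6 input libraries, WT cold, WT RT and cold Adipoq-Cre, with 3 residual degrees of freedom. Tested on simulated data, the fit called 193 of 200 changed genes and 9 unchanged ones among 12379. The simulation had few changed genes, large and balanced changes, no shift between libraries and no centring. It therefore gives no error rate for the calls reported here. Tables and figures used Python 3.11.15, pandas 2.3.3, numpy 2.4.6 and matplotlib 3.10.9.

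The rule, the gene lists and the related-gene pairs were chosen with earlier results of these data known. Genes named are the 12 largest rises and 12 largest falls called on both scales (mean of 5 RPKM or more in the higher group, no overlap), the 10 most abundant genes of each group, key genes of each list and up to 4 called members with the smallest adjusted p; others are said to have been chosen after their values were seen, and a few genes are not reported here. Same-numbered WT cold and WT RT inputs did not deviate together (r = 0.06), so replicate numbers were not used as a block. Same-numbered input and m6A libraries did, with r = 0.565 in WT cold and 0.324 in WT RT. Alternatives were the pseudocount, the filter, the scaling, the libraries in the fit, the trend, the replicate block and leaving out each library.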

Additional observations from a re-analysis of the deposited data

How the results depend on the processing

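As deposited, the 832 higher and 6526 lower genes became 2813 and 2317 with quantile scaling and 2393 and 2618 with median-ratio factors, both of which align the libraries on more than the total. With 1 WT library left out in turn, they ranged from 359 to 804 and from 3074 to 6494. After centring, the 2476 higher and 2369 lower genes became 1215 and 4803 with scaling to the total outside mitochondrial mRNAs, Lars2 and Gm20594, which shifts all genes alike, and ranged from 1092 to 2364 and from 1208 to 2224 with a library left out. The 2905 higher and 3068 lower genes of the m6A libraries ranged from 1699 to 2699 and from 1894 to 2888. A fit that leaves out a library keeps 1 sample in its group, which is assumed to vary like the other groups. The input counts stayed within 1.5 times of these under pseudocounts of 0.1 and 5, no filter, a mean of 5 RPKM or more, a fit of the 4 WT libraries alone and no trend, and the m6A counts under a pseudocount of 0.1 and a fit of the 4 WT libraries alone. Replicate numbers were not shown to pair WT cold with WT RT samples. With the replicate block the counts were 822 and 6469 as deposited, 2360 and 2288 after centring and 2820 and 2991 in the m6A libraries. Of 379 named genes, 315 were called after centring and 259 kept the call without each of the 4 libraries. Calls were lost for 48 and 42 without WT RT replicates 1 and 2, for 14 and 23 without WT cold replicates 1 and 2, for 27 with scaling outside mitochondrial mRNAs, for 23 with quantile scaling, for 17 with no filter and for 14 with a pseudocount of 5. Quantile scaling reversed mt-Atp6 (-0.23), mt-Co2 (-0.35), mt-Atp8 (-0.43), mt-Nd4l (-0.32), Adipoq (-0.058) and Sparc (-0.84), the cause of which was not tested. Depth limits statements on genes near 0, where 3 reads over a group set the floor.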
